A study of Mus musculus with 8 samples.

Results

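Carbonic anhydrases were examined in inguinal white adipose tissue, a subcutaneous fat depot abbreviated iWAT, of mice that lack Senp2, a SUMO protease, in adipocytes. The genes were Car2, Car3, Car4, Car5b, Car6, Car8, Car9, Car12, Car13 and Car14, 10 of the 20972 genes that the array probes could be matched to. They were found by the RefSeq accession of their probes, 12 in all, with 2 probes each for Car4 and Car8. The family was taken up because Car12 had one of the largest falls in the knockout, so the Car12 difference is given as a description without a test. Senp2-aKO mice (4 samples) carried Senp2flox/flox alleles and an Adipoq Cre transgene, whose adiponectin promoter drives Cre recombinase in adipocytes. Control mice (4 samples) carried Senp2flox/flox alleles without Cre, so the presence of Cre also differs between the groups. All mice began a diet with 58 kcal% fat at 8 weeks of age, ate it for 12 weeks and were housed at 22 to 24 °C. The labels number the samples of a group without saying that they came from separate animals, so p-values measure only the spread between these samples.

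Carbonic anhydrases are zinc enzymes that turn carbon dioxide and water into bicarbonate and a proton, and back. Their isoforms are known mainly by where they work: Car2, Car3 and Car13 in the cytosol, Car5b in mitochondria, Car4, Car9, Car12 and Car14 at the outer face of the cell membrane, and Car6 outside the cell. Car8 belongs to the family by sequence but lacks the enzyme activity. In adipocytes Car3 is known as an abundant cytosolic protein, and mitochondrial carbonic anhydrase is known to supply bicarbonate for pyruvate carboxylation.

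The 3 promoter windows below belong to Car12, which had the lowest knockout level relative to control in the family, to Car5b, whose levels were higher on every knockout array, and to Car4, whose 2 probes both read higher in the mean. They run from 250 bases before to 50 bases after an annotated transcript start, 5′ to 3′ on the gene's strand, and come from RefSeq (build GRCm38.p6), where 6 of the 10 genes matched. Capitals mark the motifs searched on both strands: the hypoxia response core ACGTG, the GC box GGGCGG, the TATA box TATAAA and the C/EBP element TTGCNNAA.
Car12, chr9:66713436-66713735, plus strand: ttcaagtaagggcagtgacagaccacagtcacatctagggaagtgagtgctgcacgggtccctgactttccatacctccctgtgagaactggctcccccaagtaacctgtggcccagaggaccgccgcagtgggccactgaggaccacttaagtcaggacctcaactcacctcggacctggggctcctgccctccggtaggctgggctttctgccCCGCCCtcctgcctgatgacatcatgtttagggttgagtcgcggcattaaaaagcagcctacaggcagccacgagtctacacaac
Car5b, chrX:164027961-164028260, minus strand: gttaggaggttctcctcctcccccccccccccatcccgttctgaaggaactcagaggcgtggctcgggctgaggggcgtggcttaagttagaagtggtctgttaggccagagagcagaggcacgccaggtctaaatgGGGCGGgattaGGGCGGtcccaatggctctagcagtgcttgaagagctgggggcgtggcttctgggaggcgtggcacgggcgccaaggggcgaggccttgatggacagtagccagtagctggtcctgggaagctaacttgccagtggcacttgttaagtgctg
Car4, chr11:84957504-84957803, plus strand: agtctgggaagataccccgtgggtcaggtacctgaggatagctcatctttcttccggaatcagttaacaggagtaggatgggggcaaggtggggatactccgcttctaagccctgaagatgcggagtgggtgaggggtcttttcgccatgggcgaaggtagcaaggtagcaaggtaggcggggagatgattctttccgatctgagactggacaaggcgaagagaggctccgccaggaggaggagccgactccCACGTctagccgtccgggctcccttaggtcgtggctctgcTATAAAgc
The Car12 window held 1 GC box, beginning 35 bases before the start, and no other of the 4 motifs. The Car12 gene is annotated from 66712296, before this window begins at 66713436, so the sequence around the first base of the gene was not searched. The Car5b window held 2 GC boxes, beginning 113 and 102 bases before the start. The Car4 window held the hypoxia response core beginning 2 bases after the start and a TATA box 42 bases after it. Among all 32851 promoter windows of the same length, 35.7% held a GC box, 19.6% the hypoxia response core, 13.6% a TATA box and 10.8% the C/EBP element. The hypoxia response core also stood in the Car9, Car14 and Car6 windows, and the C/EBP element in 0 of the 6.

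The 8 arrays shared 1 slide and 1 scan time, and the rows of the slide were split by genotype, so that an effect of the row and one of the genotype cannot be told apart. Levels are log2 processed signals relative to the 75th percentile of the array, which was 349 ± 27.1 on Senp2-aKO arrays and 419 ± 18.2 on control arrays (SD, n = 4 each, exact permutation p = 0.0286, two-sided, the smallest possible). Saturation was flagged on 0 spots, and precision is limited by having 4 arrays a group. The Senp2 level was 2.19, 2.12, 2.20 and 2.22 on Senp2-aKO arrays, against 2.46, 2.46, 2.52 and 2.37 on control arrays (difference -0.27 with SE 0.08, limma adjusted p = 0.0507). All Senp2-aKO arrays lay below all control arrays. The tissue also holds cells without Cre activity, and their part in the Senp2 level was not tested. Adipocyte markers, all 10 of which were measured, had summed signals of 3000 to 3950 times the 75th percentile on Senp2-aKO arrays and 2480 to 3170 on control arrays. Markers of fast skeletal muscle summed to 606 to 1660 on Senp2-aKO arrays and 29.7 to 144 on control arrays, and 11 of 12 were called higher. Mammary epithelium markers summed to 2.35 to 7.44 on Senp2-aKO arrays and 2 to 2.26 on control arrays, and 4 of 9 were called higher. Csn2 and Wap, also listed, were well above background on no array. Adipose progenitor sums were higher on every Senp2-aKO array (548 to 739, against 434 to 512 on control arrays). Of the 7 progenitor markers 2 were called higher and 1, Pdgfrb, lower (log2 fold change -0.71, limma adjusted p = 0.0132). Schwann cell sums were lower on every Senp2-aKO array (23.7 to 33.1, against 34.1 to 38), with 0 of 6 markers called. Macrophage sums overlapped (181 to 239, against 147 to 234). Array aKO 2 stood apart in lymphocyte markers, with sums of 47.5 for B cells and 41.8 for T cells, against at most 6.75 and 9.76 on the other arrays.

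Among the 14730 genes with a probe well above background on at least 4 arrays, 2123 (14.4%) passed an adjusted p under 0.05 in the limma test between the groups. Higher genes made up 7.29%, lower genes 7.12%, and genes whose groups did not overlap 26.3%. All 10 carbonic anhydrases met the filter on background. Of the 9 other than Car12, Car5b and Car8 were called higher, 0 were called lower and 7 did not pass. At an unadjusted p under 0.05, 5 of the 9 were higher and 0 lower, against 14.7% of all genes higher and 17.6% lower. The groups did not overlap in 1 of these 9. The median log2 fold change was 0.32 over the 10 genes and 0.39 without Car12, against -0.02 over all genes tested. Because the family was chosen in this same contrast, nothing is read from these counts.

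**Figure D1:**
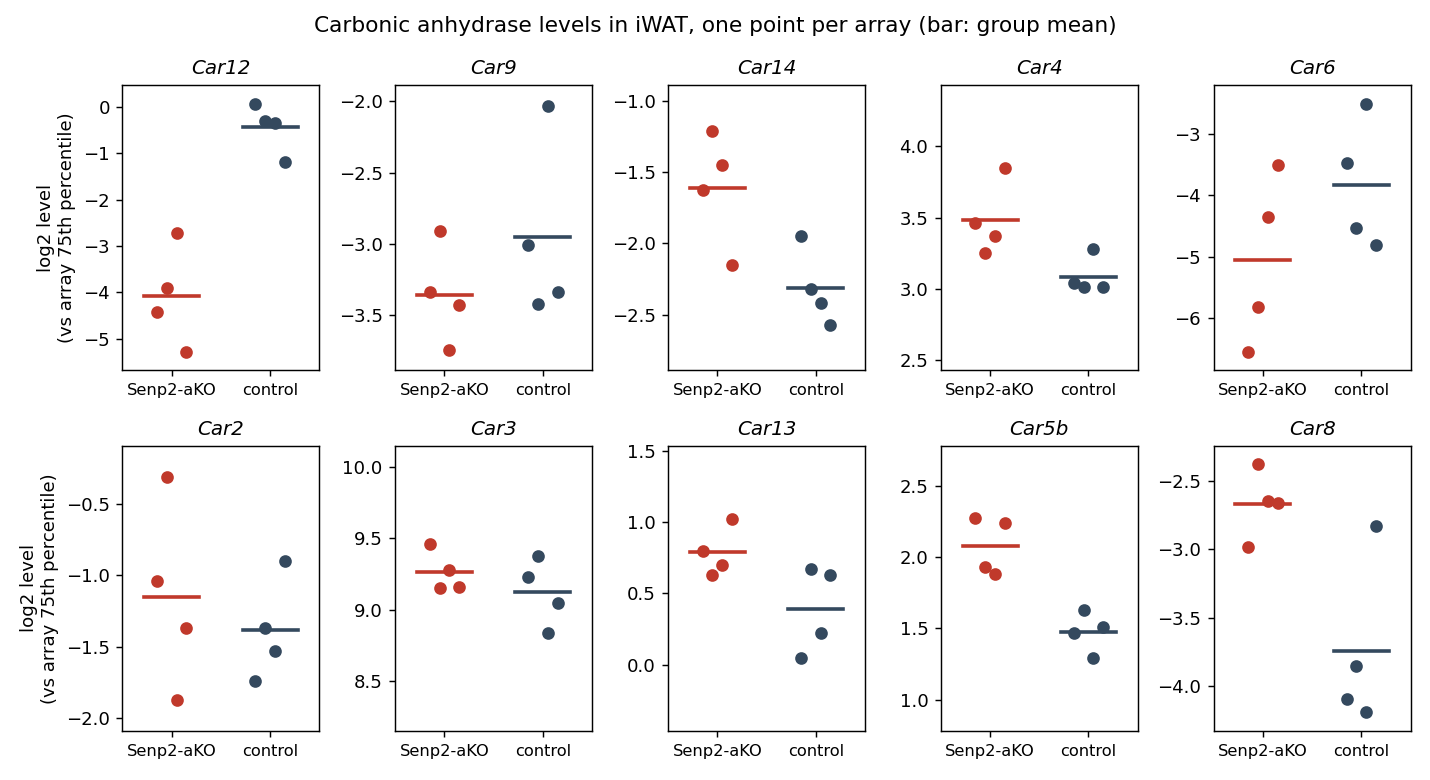
Level of each of the 10 carbonic anhydrase genes on every array (y axis, log2 processed signal relative to the 75th percentile of the array; each panel has its own range), with Senp2-aKO arrays on the left and control arrays on the right. Points are arrays and bars are means of 4; Car12 and Car5b are the panels without overlap between the groups.

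The membrane-bound isoforms with an outward-facing active site had differences of both signs. Car12 (chr9:66712296-66766845, GRCm38.p6) encodes a transmembrane enzyme known from epithelia and tumours. Its processed signal was 15.1, 23.9, 57.8 and 8.44 on Senp2-aKO arrays 1 to 4, against 428, 331, 350 and 180 on control arrays 1 to 4. As log2 levels these were -4.43, -3.91, -2.72 and -5.28 on Senp2-aKO arrays, against 0.07, -0.31, -0.35 and -1.19 on control arrays. Every Senp2-aKO array lay below every control array, with aKO 3 the highest of the knockouts and control 4 the lowest of the controls. The probe was flagged well above background on aKO 2, aKO 3 and all 4 control arrays, but not on aKO 1 or aKO 4, the 2 dimmest knockout arrays. The mean was -4.09 ± 1.07 in Senp2-aKO samples and -0.44 ± 0.53 in control samples (SD, n = 4 each). The log2 fold change was -3.64, given without an interval because the family was chosen for this fall. Its size depends on the treatment of signals near background: a background model that adds an offset of 50 to every signal gave -1.90. Leaving out single arrays gave -4.10 to -3.24. In bulk tissue, fewer cells that express Car12 and less Car12 RNA per cell cannot be told apart. Marker sums of fast muscle (11 of 12 markers called higher) and mammary epithelium (4 of 9) were higher on the same Senp2-aKO arrays. The part of these tissues in the Car12 difference was not tested.

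Car9, the transmembrane isoform known as a target of hypoxia signalling, stood at -3.34, -2.91, -3.74 and -3.43 on Senp2-aKO arrays, against -3.01, -3.42, -2.03 and -3.34 on control arrays. Control 3 was the highest array, and the groups overlapped. Its log2 fold change was -0.41 (95% interval -1.14 to 0.33, limma adjusted p = 0.414, n = 4 each), and it was -0.10 without control 3 and -0.04 with the offset background model. Car14, a transmembrane isoform known from retina, kidney and muscle, was at -1.63, -1.21, -1.45 and -2.15 on Senp2-aKO arrays, against -1.95, -2.32, -2.42 and -2.57 on control arrays. Of its knockout arrays, aKO 4 alone fell among the controls. The difference of 0.70 (95% interval 0.20 to 1.20) did not pass (limma adjusted p = 0.0654), but it did without aKO 4 (0.88, adjusted p = 0.0332) and with the offset background model (0.51, adjusted p = 0.0283).

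Car4 is the isoform held at the membrane by a lipid anchor and is known from capillary endothelium as well as muscle. Its brighter probe read 3.46, 3.25, 3.37 and 3.85 on Senp2-aKO arrays, against 3.04, 3.01, 3.28 and 3.01 on control arrays. Array aKO 2 lay below control 3, and the other 3 Senp2-aKO arrays lay above all controls. The difference of 0.40 (95% interval 0.07 to 0.73) did not pass (limma adjusted p = 0.0976). The second Car4 probe read 1.39, 1.17, 1.28 and 1.96 on Senp2-aKO arrays, against 0.60, 0.60, 0.86 and 0.76 on control arrays. There the groups did not overlap, and the difference of 0.74 (SE 0.18) passed when adjusted over all 30508 kept probes (limma adjusted p = 0.0375). The 2 probes thus had the same sign but gave different calls, and their mean gave 0.57 (adjusted p = 0.0488). Endothelium markers summed to 205 to 310 on Senp2-aKO arrays and 249 to 290 on control arrays, and 0 of 10 were called in either direction by limma, while fast muscle markers rose on the Senp2-aKO arrays; the part of muscle in the Car4 values was not tested.

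Car6, the secreted isoform of saliva and milk, was read by a dim probe. It stood at -6.54, -5.81, -4.35 and -3.51 on Senp2-aKO arrays, against -3.47, -4.54, -2.51 and -4.81 on control arrays. Its probe was flagged well above background on aKO 3 and aKO 4 and on 3 of the controls, and the groups overlapped. The log2 fold change of -1.22 had a wide interval (-2.93 to 0.49, limma adjusted p = 0.293), and the offset background model brought it to -0.08.

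The 3 cytosolic isoforms did not pass the test. Car2, Car3 and Car13 lie close together on chromosome 3, between 14641727 and 14900770 (GRCm38.p6), with Car1 in the same interval. Car3, the abundant isoform of adipocytes and slow muscle fibres, was at 9.46, 9.15, 9.28 and 9.16 on Senp2-aKO arrays, against 9.23, 9.38, 8.84 and 9.05 on control arrays. The groups overlapped, with a mean of 9.26 ± 0.14 in Senp2-aKO samples and 9.13 ± 0.24 in control samples (SD, n = 4 each). The difference of 0.14 (95% interval -0.18 to 0.45, limma adjusted p = 0.530) turned to -0.03 under quantile normalisation. Over the same arrays the fast muscle sum separated the groups. The slow muscle sum was 2.46 to 7.34 on Senp2-aKO arrays and 2.53 to 4.04 on control arrays. Of the 7 slow muscle markers measured, 1, Myoz2, was called higher (log2 fold change 3.22, limma adjusted p = 0.0178). Their median log2 fold change was 0.89, and the part of muscle in the Car3 values was not tested.

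Car2, the fast cytosolic enzyme of red cells and many other cell types, was at -1.04, -0.31, -1.87 and -1.37 on Senp2-aKO arrays, against -1.74, -1.37, -1.53 and -0.90 on control arrays. The highest and the lowest value both came from Senp2-aKO arrays, aKO 2 and aKO 3. The difference of 0.24 (95% interval -0.51 to 0.99, limma adjusted p = 0.654) was -0.04 without aKO 2 and 0.48 without aKO 3. Red blood cell markers summed to 878, 1470, 823 and 917 on Senp2-aKO arrays and 1050, 1310, 1040 and 1090 on control arrays, so aKO 2 and aKO 3 were the extremes there too. The part of red cells or lymphocytes in the Car2 values was not tested. Car13 was at 0.80, 0.63, 0.70 and 1.02 on Senp2-aKO arrays, against 0.05, 0.67, 0.22 and 0.63 on control arrays. Array aKO 2 lay below control 2 and level with control 4, and the difference of 0.39 (95% interval 0.01 to 0.78) did not pass (limma adjusted p = 0.144).

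The mitochondrial isoform Car5b (chrX:163976822-164028010, GRCm38.p6) rose in Senp2-aKO fat. Its level was 2.27, 1.93, 1.88 and 2.24 on Senp2-aKO arrays, against 1.47, 1.63, 1.29 and 1.51 on control arrays. All 4 Senp2-aKO arrays lay above all 4 control arrays, at 2.08 ± 0.20 and 1.47 ± 0.14 in the mean (SD, n = 4 each). The rise was 1.52-fold (95% interval 1.24 to 1.87, log2 0.61 with SE 0.13, limma adjusted p = 0.0203). The call ended without aKO 4 (adjusted p = 0.0527), control 1 (0.0622) or control 3 (0.0569), while the log2 fold change was 0.54 to 0.67 over the 8 omissions. Adipocyte marker sums overlapped between the groups, fast muscle sums did not, and the part of muscle in the Car5b rise was not tested.

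Car8, the member without carbonic anhydrase activity, is known as a partner of the inositol trisphosphate receptor, a calcium release channel, in cerebellar Purkinje cells. Its brighter probe read -2.98, -2.38, -2.65 and -2.66 on Senp2-aKO arrays, against -4.09, -3.85, -4.19 and -2.83 on control arrays. Control 4 lay within the knockout range and the other 3 controls below it. Car8 rose 2.10-fold (95% interval 1.31 to 3.37, log2 1.07 with SE 0.30, limma adjusted p = 0.0472, n = 4 each). The call held in 1 of 8 omissions, that of control 4 (1.38, adjusted p = 0.00929), and reached an adjusted p of up to 0.123 in the others; under quantile normalisation it was 0.0592 and with no filter on background 0.0752. With the offset background model the log2 fold change was 0.60 (adjusted p = 0.029). The second Car8 probe was well above background on 0 of 8 arrays. The marker sums of mammary epithelium (4 of 9 markers called higher) and fast muscle (11 of 12) were higher on the same Senp2-aKO arrays. The part of these tissues in the Car8 rise was not tested.

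**Figure D2:**
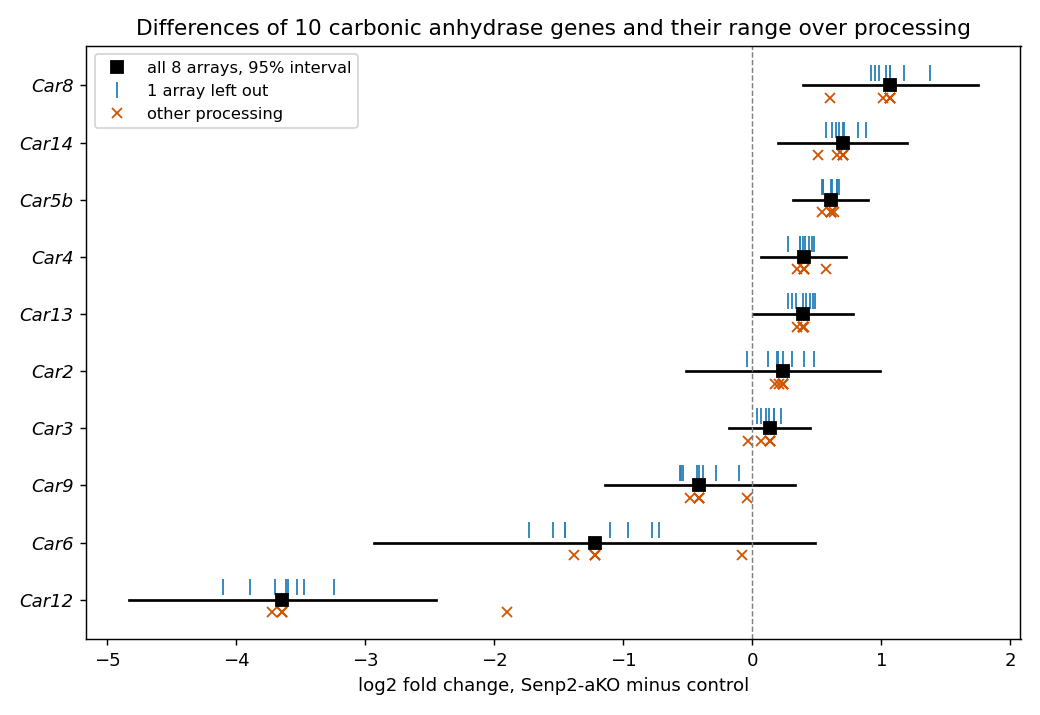
Log2 fold change of each carbonic anhydrase gene, Senp2-aKO minus control (x axis), with its 95% interval from limma over 8 arrays (squares and lines), the values with 1 array left out (blue ticks) and under other processing (orange crosses). The interval drawn for Car12 takes no account of the choice of the family for the Car12 fall and is not read as a test. Among the squares, ticks and crosses, without the intervals, Car12 lies between -4.10 and -1.90, Car2 and Car3 cross 0, and Car5b stays between 0.54 and 0.67.

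Of 6 further family genes on the array, Car5a and Car10 were well above background on 0 of 8 arrays and 4 were tested. Car15, a lipid-anchored membrane isoform of rodents, rose, with levels of -1.87, -1.30, -1.53 and -1.46 on Senp2-aKO arrays against -1.95, -2.38, -2.39 and -2.46 on control arrays (difference 0.75 with SE 0.16, limma adjusted p = 0.0209). Its groups did not overlap, though aKO 1 lay close to control 1, and the call ended without aKO 4 (adjusted p = 0.0544), control 2 (0.0567), control 3 (0.0607) or control 4 (0.0568). With the offset background model its difference was 0.47 (adjusted p = 0.0163). Car7, a cytosolic isoform, was at 1.39, 1.34, 1.46 and 1.82 on Senp2-aKO arrays against 1.07, 1.25, 1.17 and 1.09 on control arrays and did not pass (0.36, adjusted p = 0.0872). Car11, another member without enzyme activity, and the red cell isoform Car1 did not pass either (0.32 and -0.36, limma adjusted p = 0.360 and 0.159). The Car11 difference was 0.19 to 0.53 over the 8 omissions, and the Car1 difference was -0.12 as the mean of its probes and -0.08 with the offset background model.

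The genes whose levels followed Car12 most closely over the 8 arrays were Cd274, Lims1, Enpp3, Psmb10 and Thsd1, chosen by Pearson's r across arrays. The coefficients were 0.992, 0.989, 0.988, 0.985 and 0.984 and are given as a description, since all 8 points share the split into groups. Cd274, the immune checkpoint ligand PD-L1, stood at -0.96, -0.88, -0.23 and -1.22 on Senp2-aKO arrays, against 1.22, 1.19, 1.04 and 0.86 on control arrays. As with Car12, aKO 3 was the highest and aKO 4 the lowest knockout array, and control 4 was the lowest control. The choice of genes by likeness to Car12 on these same arrays favours such a shared order, so nothing is read from it. Their log2 fold changes were smaller than that of Car12, at -1.90 for Cd274 and -0.56 to -0.37 for Lims1, an adaptor of focal adhesions, Enpp3, a membrane nucleotide pyrophosphatase, Psmb10, an immunoproteasome subunit, and Thsd1, a membrane protein with a thrombospondin domain.

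**Figure D3:**
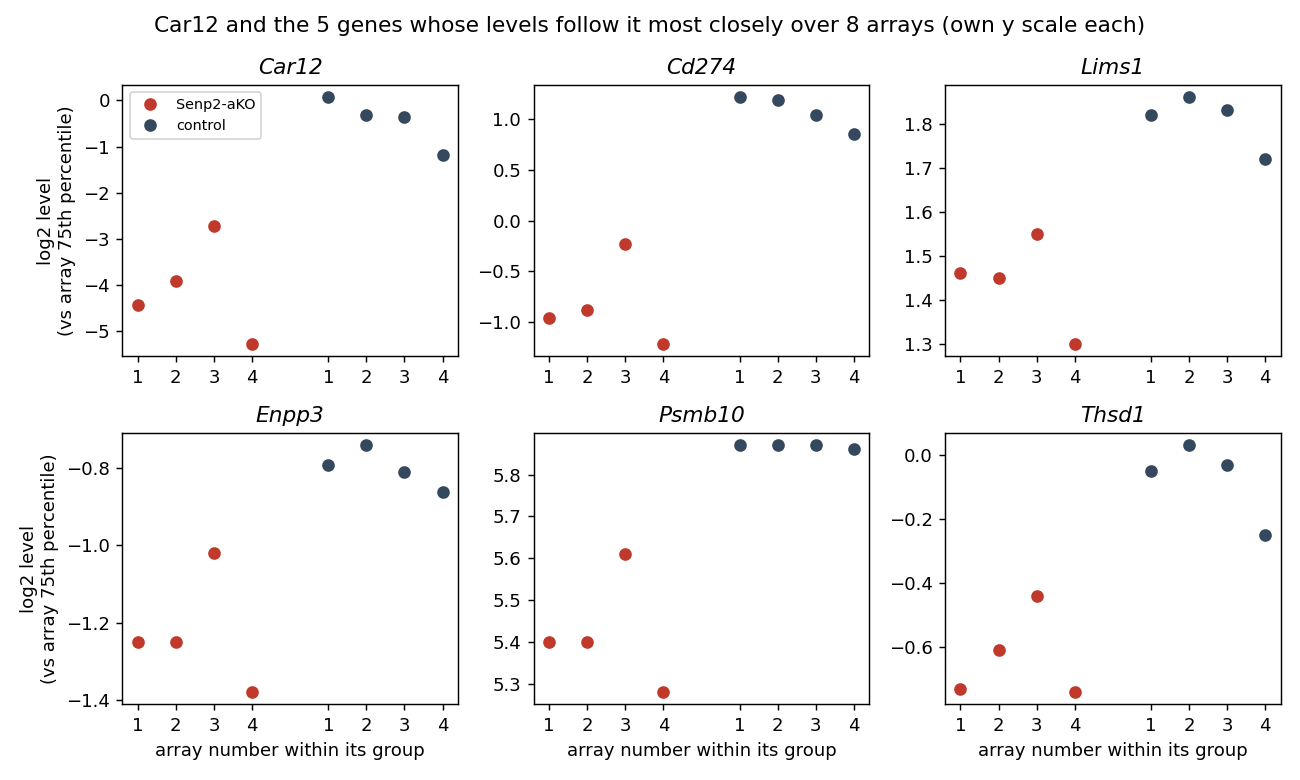
Levels of Car12 and of the 5 genes with the highest Pearson r to it (y axis, log2 processed signal relative to the 75th percentile of the array, own scale per panel) on Senp2-aKO arrays 1 to 4 and control arrays 1 to 4 (x axis). In every panel aKO 3 is the highest knockout array, aKO 4 the lowest and control 4 the lowest control. The choice of genes by r favours such a shared order. For Psmb10 the control arrays are nearly level, at 5.87 on controls 1 to 3 and 5.86 on control 4.

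Bicarbonate made by carbonic anhydrases is moved by transporters and used by carboxylases, and some isoforms respond to low oxygen, so genes of these processes were listed beside the family. Of 12 measured bicarbonate transporters and carbon dioxide channels, 1 rose, 1 fell and 10 did not pass in limma (median log2 fold change 0.04). Adjusted calls made up 7.29% (higher) and 7.12% (lower) of all genes. Without adjustment, limma p was under 0.05 for 1 higher and 2 lower genes, against 14.7% and 17.6% of all genes. Slc4a7, a sodium bicarbonate cotransporter, fell, with levels of 1.88, 1.41, 1.74 and 1.86 on Senp2-aKO arrays, against 2.65, 2.60, 2.75 and 2.65 on control arrays (log2 fold change -0.94, SE 0.12, adjusted p = 0.0051). Slc4a8, a sodium-driven chloride bicarbonate exchanger, rose, with -1.55, -1.45, -1.46 and -1.44 on Senp2-aKO arrays, against -3, -2.34, -2.67 and -2.33 on control arrays (1.11, SE 0.15, adjusted p = 0.00651). For both, the groups did not overlap, as in 26.3% of all genes, and both calls held in 8 of 8 omissions. The Slc4a8 difference was 0.69 with the offset background model and the Slc4a7 difference -0.62 as the mean of its probes, both still called (adjusted p = 0.00439 and 0.00585).

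Of 12 proton and lactate exporters 1 rose, 0 fell and 11 did not pass in limma (median 0.04). At an unadjusted p under 0.05, 2 were higher and 0 lower, against 14.7% and 17.6% of all genes. Adjusted calls made up 7.29% (higher) and 7.12% (lower) of all genes. The one that rose was the lactate exporter Slc16a3, known from glycolytic muscle, at 0.53, 1.31, 1.44 and 0.92 on Senp2-aKO arrays, against -0.46, 0.08, -0.01 and -0.52 on control arrays (log2 fold change 1.28, SE 0.23, adjusted p = 0.0136). Its groups did not overlap, fast muscle markers were higher on the same arrays, and their part in the rise was not tested. Of 11 enzymes that use or sense bicarbonate or serve those enzymes, 1 fell, 0 rose and 10 did not pass (median 0.25). At an unadjusted p under 0.05, 2 were higher and 1 lower, against the same 14.7% and 17.6%. The one that fell was Hlcs, which attaches biotin to carboxylases, at -0.65, -0.48, -0.40 and -0.64 on Senp2-aKO arrays, against 0.30, 0.25, 0.03 and -0.05 on control arrays (-0.67, SE 0.11, adjusted p = 0.0109). Without aKO 2, 3 enzymes of this list rose, and without aKO 3, 1 rose.

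Of 19 hypoxia-responsive genes 4 rose, 0 fell and 15 did not pass in limma (median 0.19). At an unadjusted p under 0.05, 8 were higher and 1 lower, against 14.7% and 17.6% of all genes, and adjusted calls made up 7.29% and 7.12% of all genes. The stress-induced Ndrg1 rose 1.65-fold (log2 0.72 with SE 0.11, adjusted p = 0.00761) and the glucose transporter gene Slc2a1 1.46-fold (0.55, SE 0.10, adjusted p = 0.0127). Slc2a1 stood at 1.49, 1.66, 1.49 and 1.64 on Senp2-aKO arrays, against 0.90, 1.20, 1 and 1 on control arrays, without overlap. Ddit4, an inhibitor of mTORC1 signalling, and P4ha1, a collagen prolyl hydroxylase, rose too (0.72 and 0.70, adjusted p = 0.0371 and 0.0340). The Ddit4 call ended under quantile normalisation (0.50, limma adjusted p = 0.138) and the P4ha1 call with the mean of its probes (0.78, adjusted p = 0.0602). Both calls ended with no filter on background (adjusted p = 0.0608 for Ddit4 and 0.0563 for P4ha1). The Ddit4 and P4ha1 calls held in 2 and 1 of 8 omissions, while Ndrg1 and Slc2a1 held in 8 of 8. The count of risen genes was 8 without aKO 2 and 2 without aKO 4 or any single control, and fast muscle markers rose on the same arrays, whose part was not tested.

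**Figure D4:**
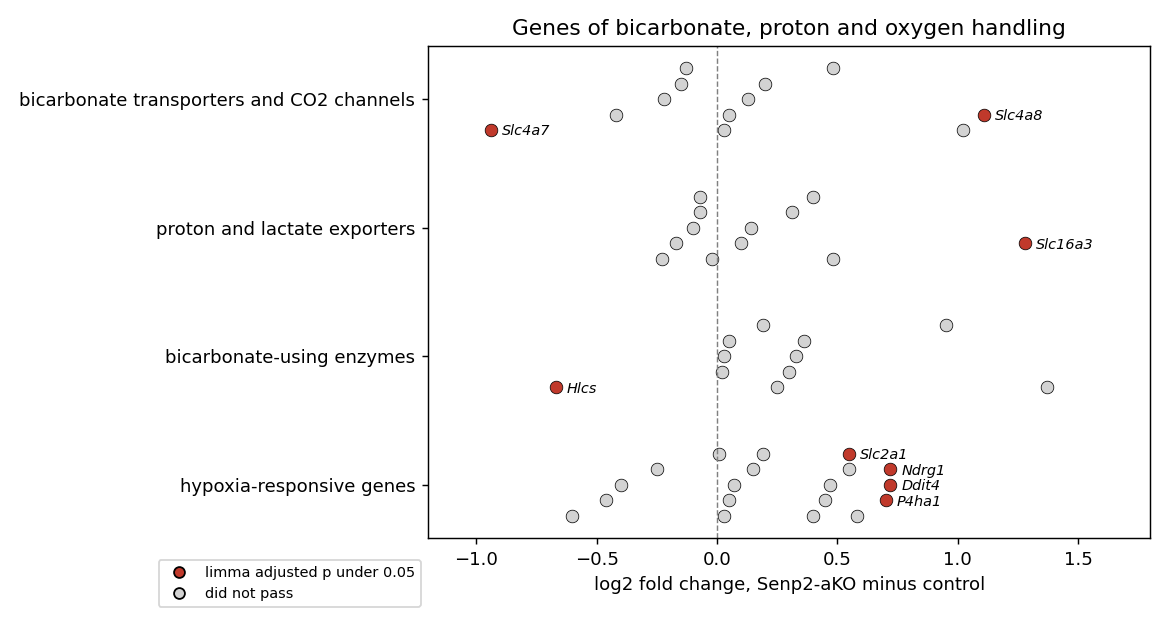
Log2 fold change, Senp2-aKO minus control (x axis), of every tested gene in 4 lists around carbonic anhydrase function (rows). Each point is a gene, red where the limma adjusted p was under 0.05, and the red points are Slc4a7, Slc4a8, Slc16a3, Hlcs and 4 hypoxia-responsive genes.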

How the data were processed

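The submitters' processing notes name Agilent Feature Extraction 11.5.1 as the software, and per the file headers it subtracts the local background and corrects trends within an array. All deposited spot signals, processed or raw, have the unit intensity and were not scaled across arrays. The deposited spot flags for background, saturation and outliers hold 0 or 1 (unit other). A series-wide matrix was left out, since none of its 8 column names fits a label.

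Of 62976 spots on an array, 3671 were controls. Log2 processed signals were taken relative to the 75th percentile of the array, and spots of a probe were averaged without outlier spots, which left out 269 of 55681 probes. RefSeq accessions (annotation GRCm38.p6) gave 27656 probes 1 gene each and left 28025 without a name. Probes well above background on at least 4 of 8 arrays were kept (30508), and the probe with the highest mean stood for its gene (14730 genes). Senp2-aKO was set against control in limma (version 3.58.1, under R 4.3.3), with Benjamini-Hochberg adjustment over all genes, a threshold of 0.05 and 95% intervals. The fit was tested on simulated data. Named genes were the 10 members, Senp2, up to 4 called genes per list, the 5 most like Car12 and the further family genes. The members and lists were chosen with earlier results of these data known. Alternatives were quantile normalisation, normexp with an offset of 50 on median signals, no filter, a filter on all 8 arrays, the mean of probes, a replicate block and leaving out each array.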

Additional observations from a re-analysis of the deposited data

Results flagged for a closer look

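In 28 named genes, 56 groups of 4 arrays were checked for a single array far from the other 3, and 3 were found; chance gives about 1 in 20 such groups. For the brighter Car4 probe, control 3 stood at 3.28, against 3.01 to 3.04 on the other control arrays. For Ndrg1, aKO 2 stood at 5.07, against 4.86 to 4.88 on the other Senp2-aKO arrays. For Car15, control 1 stood at -1.95, against -2.46 to -2.38 on the other control arrays.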

How the results depend on the processing

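Among single genes, 324 values counted as kept, 56 lost a call, 7 gained one, 1 moved (Car12 with the offset background model, -1.90) and 2 changed sign. Those 2 were Car3 under quantile normalisation (-0.03) and Car2 without aKO 2 (-0.04, in a range of up to 0.48 over the omissions). Kept values held their direction and their side of the threshold. For Car12, which was not tested, a kept value held its direction and lay within 0.846 of -3.64. The number of carbonic anhydrases called higher, Car12 aside, was 1 under quantile normalisation, with no filter and with the replicate block, where the call lost was that of Car8 (adjusted p = 0.0592, 0.0752 and 0.0644). It was 0 to 2 when single arrays were left out, and 0 without control 1 or control 3. The number of genes lower was 689 with no filter and 569 with the replicate block. Single omissions gave 434 to 1356 genes higher and 280 to 1472 lower, with both counts below the reported ones by over 1.5 times without aKO 1, aKO 4 or any control. With the replicate block, 0 further family genes and 2 bicarbonate transporters were called higher, and the Ddit4 call ended (limma adjusted p = 0.104). Hypoxia-responsive genes numbered 1 lower under quantile normalisation and 2 higher with no filter. Omissions gave 0 to 1 further family genes higher, 0 to 1 proton and lactate exporters lower, 0 to 3 bicarbonate-using enzymes higher, and 2 to 8 hypoxia-responsive genes higher and 0 to 1 lower. Some of these settings have fewer arrays or other gene numbers, and the cause of the changes was not tested. Same-numbered samples shared little (correlation of deviations -0.017, -0.075, 0.142 and 0.107), so the replicate block rests on a shared number only. Car12 was not tested for the filter on all 8 arrays, which removes it, as it does Car6. Low signal limits Car12, Car6 and the second Car8 probe, which were not well above background on some or all arrays.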
